A study of Mus musculus with 491 samples.

Results

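Id1, Id2, Id3 and Id4, the ligands Bmp4 and Bmp7, the pseudoreceptor Bambi and the homeobox genes Msx1 and Msx2 were followed across 491 single cells from the otic vesicle and the tissue around it in mouse embryos at stage E10.5. The 9 genes were chosen by name, as the Id family and as readouts of the bone morphogenetic protein (BMP) pathway, out of 19494 genes with a usable row. Every cell came from embryos of genotype Pax2-Cre/+;Ai14-tdTomato/+, in which Cre driven from Pax2 sequences switches on the red reporter tdTomato in a cell and in all its descendants, so a sorted cell need not express Pax2 itself and no untreated or wild-type embryo served as a control. Sorted tdTomato+ cells were placed in single wells, 237 of them as replicate 1 on plates 1 to 3 and 254 as replicate 2 on plates 4 to 6. The sources used here do not say whether a replicate is an embryo, a litter or a day. The p-values rest on how differences between cell groups vary between these replicates. That spread is pooled over groups, with information shared across genes, and it may be technical.

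BMP ligands such as BMP4 and BMP7 bind receptor pairs on the cell surface, and the receptors phosphorylate SMAD proteins that enter the nucleus and switch on target genes. The Id genes are among the most direct of these targets in many tissues, and Id proteins pair with basic helix-loop-helix (bHLH) E proteins without binding DNA, which keeps E proteins from working with proneural factors such as NEUROG1 and NEUROD1. Msx1, Msx2 and Bambi are also induced by BMP signals in many embryonic tissues, and BAMBI, a receptor-like protein that lacks the kinase domain, dampens the signal. In the inner ear, neuroblasts leave the otic epithelium at this stage and turn on Neurod1 on their way to becoming neurons of the cochleovestibular ganglion.

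For the genes matched by symbol, 6 of the 9, the 250 bases before a RefSeq transcript start (GRCm38.p6) were searched on both strands for GGCGCC, a GC-rich sequence bound by SMAD1 and SMAD5, and for CAGAC, the SMAD binding element. A match of either motif cannot be a match of the other. The windows of Id2, Id4 and Msx1 are shown because Id2 and Id4 are Id genes with the GC-rich motif and Msx1 is a BMP-responsive gene with neither motif. Each runs 5′ to 3′ on the gene's strand, and capitals mark GGCGCC. The Id2 stretch is chr12:25096254-25096342 (minus strand, the 89 bases of its window that lie outside annotated exons, within the annotated gene), that of Id4 is chr13:48260866-48261115 (plus strand) and that of Msx1 is chr5:37824586-37824835 (minus strand).
Id2: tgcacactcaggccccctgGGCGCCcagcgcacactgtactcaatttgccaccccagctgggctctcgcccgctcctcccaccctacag
Id4: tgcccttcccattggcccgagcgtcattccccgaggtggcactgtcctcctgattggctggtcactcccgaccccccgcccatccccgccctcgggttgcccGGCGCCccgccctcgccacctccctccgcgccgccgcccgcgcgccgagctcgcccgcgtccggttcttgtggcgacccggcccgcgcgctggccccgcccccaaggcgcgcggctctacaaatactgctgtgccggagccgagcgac
Msx1: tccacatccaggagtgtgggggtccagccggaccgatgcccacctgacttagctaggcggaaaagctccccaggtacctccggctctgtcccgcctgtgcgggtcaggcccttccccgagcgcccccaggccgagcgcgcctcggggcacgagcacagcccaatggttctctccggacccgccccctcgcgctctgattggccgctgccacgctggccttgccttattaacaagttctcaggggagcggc
The GGCGCC of Id2 lay 225 bases before that RefSeq start, which lies inside the longer annotated gene (GRCm38, chr12:25093799-25097140), and that of Id4 lay 142 bases before its own. The windows of Id3 and Msx2 lay wholly in annotated exons of those genes. That of Id3 held 2 copies of CAGAC and no GGCGCC, and those of Msx2, Bmp4 and Msx1 held neither. Of 27025 windows of 250 bases, 9.54% held GGCGCC and 42.1% held CAGAC, so matches of both kinds are common, and a match does not show that a factor binds.

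The deposited values are log2 of FPKM (fragments per kilobase of transcript, scaled to the mapped fragments of the cell), with every FPKM below 1 listed at 0, and a gene is called found in a cell at an FPKM of at least 1. Read depth is unknown. The cells held 2695 to 6766 found genes (median 4941), and 74.9% of all values were 0. Cells were clustered on marker genes that excluded the 9 genes, and the classes, which no label gives and which rest on marker genes of these same cells, were named after markers: 136 otic epithelium-like cells (Epcam in 100% and Oc90 in 58.8% of them), 39 early neuroblast-like (Neurod1 in 79.5%, Neurog1 in 43.6%), 51 differentiating neuron-like (Neurod1 in 100%), 50 epibranchial neuron-like, 82 neural tube progenitor-like (Fabp7 in 96.3%), 41 surface ectoderm-like (Trp63 in 90.2%) and 23 mesenchyme-like (Col3a1 in 91.3%). Cluster 3 (31 cells, Wnt3a in 67.7%) and cluster 5 (38 cells, Neurod1 in 65.8%, Fabp7 in 78.9%) kept their numbers. Pax2 transcripts reached this level in 20.6% of the otic epithelium-like class. Median found genes per class ran from 4630 in neural tube progenitor-like cells to 5635 in mesenchyme-like cells.

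Wells were not independent. In 38 pairs of plate rows, 19 in each replicate and most of them neighbours on 1 plate, a well of one row shared rare transcripts with the well of the other row in the same column, at 3.45% to 17.4% (median 7.28%) of the value there. A cell was counted as receiving only where its source well was itself among the 491 cells. This gave 337 receiving cells and 154 with no source well. The 154 include wells of receiving rows whose source well is not among the 491, so they need not be free of transfer. Values given with no source well, or without receiving wells, refer to these 154 cells. The tests below are given with and without the 337 receiving cells where both replicates keep enough cells. Levels and shares are over all cells unless stated. Of the 39 early neuroblast-like cells, 7 carried markers of another type, 4 in replicate 1 of macrophages and 3 in replicate 2 of endothelium. Among the 13 cells of this class with no source well, the endothelial marker Pecam1 was found in 23.1% and the macrophage marker Csf1r in 15.4%.

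Across the classes the Id genes ran at different levels and in different orders. Id3 was the highest of the 4 by mean log2 FPKM per class in otic epithelium-like cells, at 9.12 in replicate 1 and 9.34 in replicate 2, and it was found in 134 of 136 cells (98.5%). Its FPKM there had a median of 886 and quartiles of 300 and 1428. In order of the mean of both replicates, Id3 stood at 9.4 in cluster 3, 9.23 in otic epithelium-like, 8.77 in mesenchyme-like, 8.32 in surface ectoderm-like and 7.90 in neural tube progenitor-like cells, then at 5.49 in early neuroblast-like cells, 5.12 in cluster 5, 4.97 in epibranchial neuron-like and 3.96 in differentiating neuron-like cells. The first 5 of these classes, taken here as non-neuronal, all lay above the 4 neuronal ones. Neuronal markers were still found in some cells of the 5, as Isl1 in 46.3% of surface ectoderm-like cells and Stmn2 in 29.0% of cluster 3. The nearest plate means of the 2 sets, 6.94 in neural tube progenitor-like cells and 7.08 in early neuroblast-like cells, overlapped. Neighbours such as cluster 3 and otic epithelium-like cells overlapped in their plate means. The lowest plate mean was 8.54 in the cluster and 8.26 in the otic cells. Among cells with no source well, some of these levels were lower. The Id3 mean over cells was 3.14 in 13 early neuroblast-like and 2.65 in 14 epibranchial neuron-like cells, against 5.51 and 4.98 over all cells of these classes, and in otic epithelium-like cells it was 9.04 with no source well and 9.24 over all cells.

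Id1 followed a similar order at a lower level, with 6.67 in otic epithelium-like cells at the top and 3.0 in cluster 5 at the bottom on the mean log2 scale. Replicates disagreed most for Id1 in cluster 5, with 1.45 in replicate 1 and 4.55 in replicate 2, so its place there is not fixed. In early neuroblast-like cells the Id1 mean over cells was 2.33 with no source well and 4.24 over all cells. Id2, by contrast, stayed high in epibranchial neuron-like cells, the only neuronal class where its mean log2 FPKM exceeded 6: 5.52 in replicate 1 and 7.59 in replicate 2, and it was found in 46 of 50 cells (92.0%). In differentiating neuron-like cells the Id2 means were 3.75 and 3.28, and it was found in 34 of 51 cells (66.7%).

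Id4 was the lowest and the most restricted of the family. Its mean log2 FPKM was 4.23 in otic epithelium-like and 4.16 in neural tube progenitor-like cells, which do not differ beyond their replicate means of 3.78 and 4.68 and of 3.68 and 4.64. The lowest means were 0.98 in early neuroblast-like and 0.77 in mesenchyme-like cells. Mesenchyme-like cells thus paired high Id3 (8.33 and 9.21 in replicates 1 and 2) with Id4 found in 6 of 23 cells (26.1%).

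**Figure D1:**
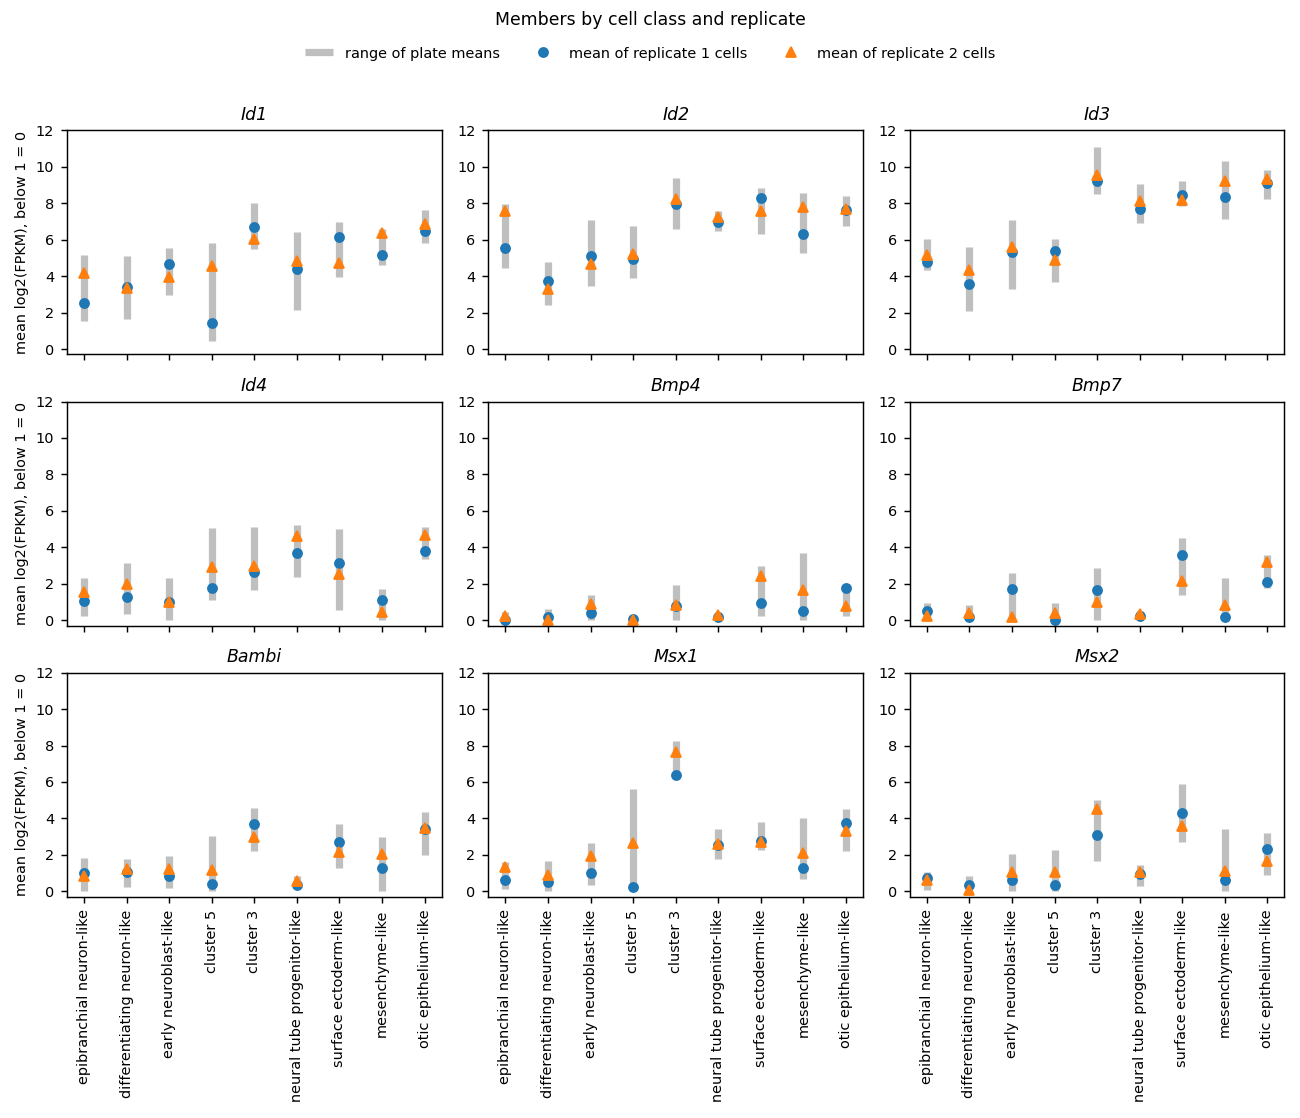
Mean log2 FPKM (values below 1 set to 0) of each of the 9 genes, on the vertical axis, in the 9 cell classes, with circles for replicate 1, triangles for replicate 2 and grey bars for the range of the plate means. Id1, Id2 and Id3 are high in the 5 non-neuronal classes, and Id2 is also high in epibranchial neuron-like cells. Msx1 reaches 7.0 (mean of both replicates) in cluster 3.

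The ligands were found in few cells. Bmp7 was found in 80 of the 136 otic epithelium-like cells (58.8%) and 24 of 41 surface ectoderm-like cells (58.5%), and in 25.8% of the cells of cluster 3 and fewer in every other class. Without receiving wells, Bmp7 was found in 0 of 31 neural tube progenitor-like cells, 0 of 15 differentiating neuron-like cells and 0 of 14 epibranchial neuron-like cells. Its otic mean log2 FPKM was 2.11 in replicate 1 and 3.18 in replicate 2. Bmp4 was found in 14 of 41 surface ectoderm-like cells (34.1%) and 34 of the 136 otic epithelium-like cells (25%), with otic mean log2 values of 1.78 and 0.76 in replicates 1 and 2. With no source well Bmp4 was found in 3 of 14 surface ectoderm-like cells (21.4%) and 5 of 42 otic epithelium-like cells (11.9%). Where it was found it could be abundant, up to an FPKM of 349 in otic epithelium-like cells. Intervals and shares here cover counting error over cells only.

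Bambi was found in 99 of the 136 otic epithelium-like cells (72.8%), 20 of 31 cells of cluster 3 (64.5%) and 24 of 41 surface ectoderm-like cells (58.5%). It was lowest in neural tube progenitor-like cells, in 15 of 82 (18.3%), with mean log2 FPKM of 0.36 and 0.56 in replicates 1 and 2 against 3.42 and 3.46 in otic epithelium-like cells. Msx1 and Msx2, homeobox repressors that mark BMP-exposed dorsal and border territories, were ordered differently from each other. Msx1 had by far its highest mean log2 FPKM in cluster 3 (6.37 and 7.63 in replicates 1 and 2), followed by otic epithelium-like cells (3.77 and 3.3), while Msx2 was highest in surface ectoderm-like cells (4.27 and 3.57), cluster 3 (3.1 and 4.5) and then otic epithelium-like cells (2.31 and 1.68). For Msx2 the first 2 of these overlap in their replicate means.

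How many of the 4 Id genes a cell held separated the classes in the same way. At least 3 of the 4 were found in 92.7% of surface ectoderm-like, 91.2% of otic epithelium-like, 90.3% of cluster 3 and 87.8% of neural tube progenitor-like cells, and in 78.3% of mesenchyme-like cells. In the neuronal classes the shares were 60.0% for epibranchial neuron-like, 59.0% for early neuroblast-like, 55.3% for cluster 5 and 51.0% for differentiating neuron-like cells. Among cells with no source well the otic share was 88.1% (42 cells), while the early neuroblast-like share was 15.4% (13 cells) and the epibranchial neuron-like share was 21.4% (14 cells). In these cells 4 of 13 early neuroblast-like cells (30.8%) held none of the 4 Id genes, and all 42 otic epithelium-like cells held at least 1. Of the 13, Neurod1 was found in 69.2%, Pecam1 in 23.1% and Csf1r in 15.4%. How far cells of other types enter these shares was not tested.

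**Figure D2:**
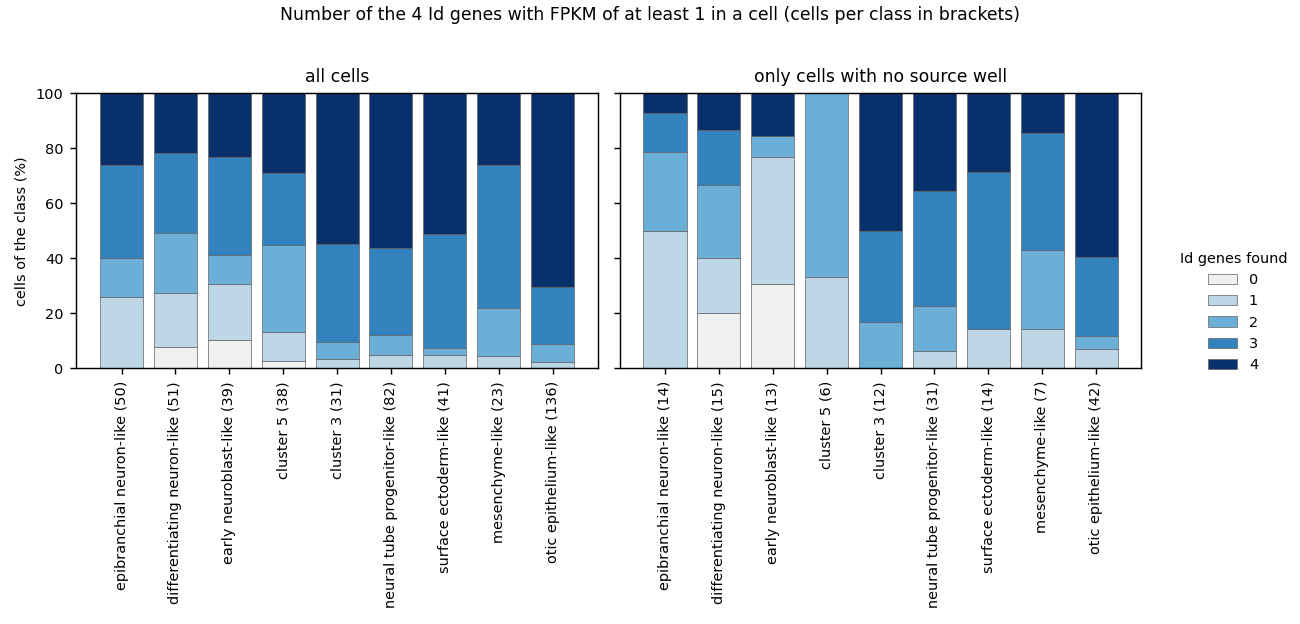
Share of the cells of each class (vertical axis, percent) that held 0, 1, 2, 3 or 4 of the Id genes at an FPKM of at least 1, in all cells (left) and in cells with no source well (right), with cell numbers in brackets. All 4 Id genes were found in 70.6% of otic epithelium-like cells, against 23.1% of early neuroblast-like and 21.6% of differentiating neuron-like cells.

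**Figure D3:**
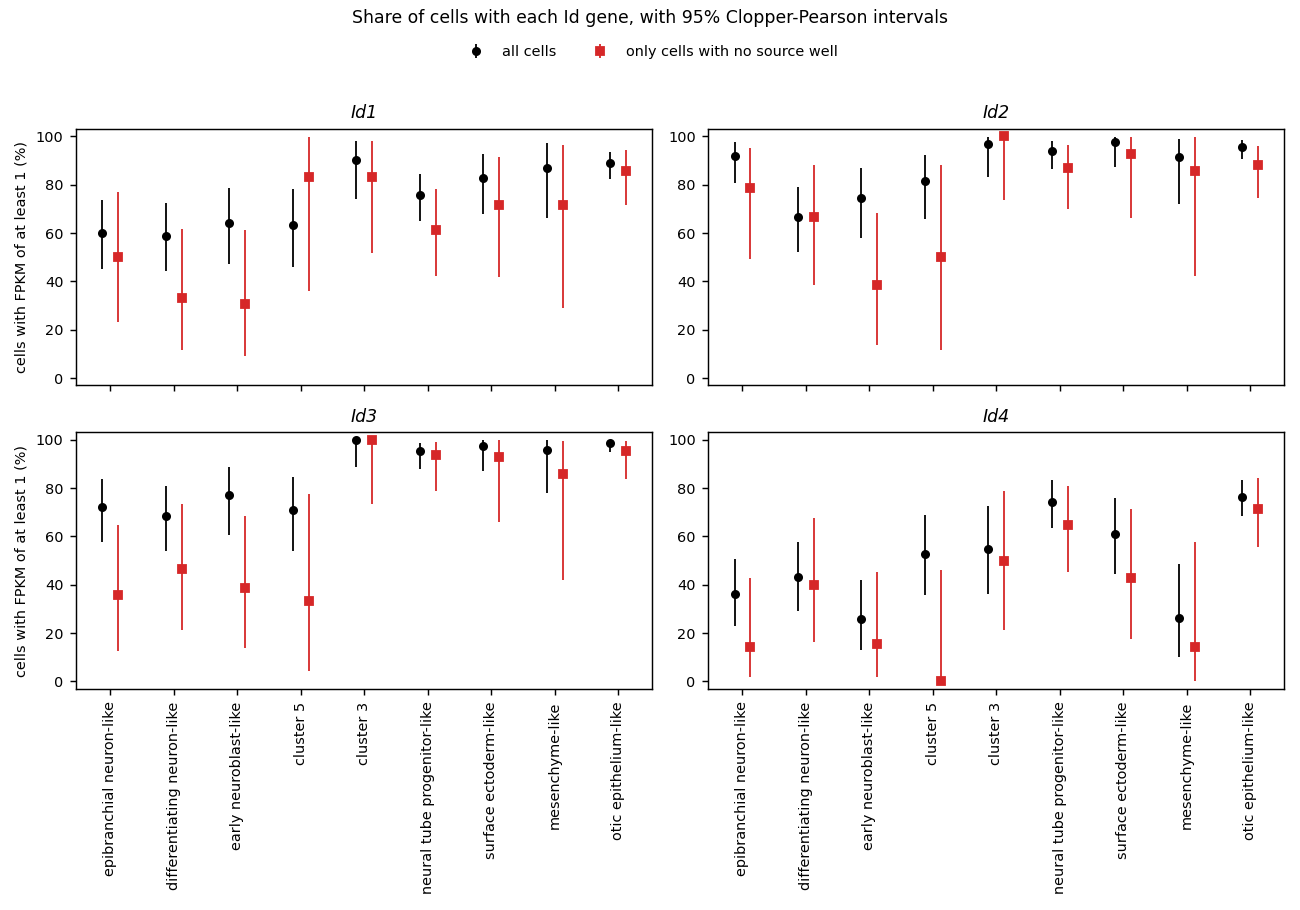
Share of cells with each Id gene at an FPKM of at least 1 (vertical axis, percent, with 95% Clopper-Pearson intervals), for all cells (circles) and for cells with no source well (squares). Id3 was found in 76.9% of all early neuroblast-like cells and in 38.5% of those with no source well, against 98.5% and 95.2% of otic epithelium-like cells.

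The step out of the otic epithelium was read by setting early neuroblast-like cells against otic epithelium-like cells. Of the 9 genes, Id2, Id3, Id4, Bambi and Msx1 fell and none rose, where 2.33% of all 10549 genes tested fell (limma on the means per class and replicate, replicate as a block, Benjamini-Hochberg adjusted p below 0.05). The median difference of the 9 genes was -2.36 in mean log2 FPKM, against -0.07 over all genes tested. A difference on this scale combines fewer cells with the transcript and less transcript per cell, which are not separated.

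Id3 averaged 5.35 and 5.63 in replicates 1 and 2 of early neuroblast-like cells, against 9.12 and 9.34 in otic epithelium-like cells, a difference of -3.74 (SE 0.29, adjusted p = 2.86e-07 by limma), and the plate means of the classes did not overlap. Id2, at 5.08 and 4.65 against 7.65 and 7.68 in otic epithelium-like cells, differed by -2.80 (SE 0.49, adjusted p = 0.00155 by limma). Id4 averaged 0.97 and 1.0 in early neuroblast-like cells against 3.78 and 4.68 in otic epithelium-like cells (difference -3.25, SE 0.49, limma adjusted p = 0.000441). All 3 differences had the same sign on 6 of 6 plates. Id1 was also lower, at 4.67 and 3.95 against 6.47 and 6.88 in otic epithelium-like cells, but its difference of -2.36 (SE 0.72) missed the threshold (limma adjusted p = 0.0916), and it was -1.35 once the 7 cells with macrophage or endothelial markers were left out. With means per plate Id1 passed (-2.32, limma adjusted p = 0.0276). Plates are parts of the same replicates, so tests on plate means treat subsamples as units.

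The other readouts followed in part. Bambi averaged 0.82 and 1.22 in early neuroblast-like cells, against 3.42 and 3.46 in otic epithelium-like cells (difference -2.42, SE 0.43, limma adjusted p = 0.00197). Msx1 averaged 1.02 and 1.93 against 3.77 and 3.3 in otic epithelium-like cells (difference -2.06, SE 0.55, limma adjusted p = 0.0456), a call that was lost in 7 of 16 other settings. Bmp7, Msx2 and Bmp4 did not pass the test, with differences of -1.68, -1.17 and -0.65 and limma adjusted p of 0.0849, 0.268 and 0.610, though Bmp7 passed with means per plate (-1.79, adjusted p = 0.00338). With the 7 cells of other types left out, Id2, Id3, Id4, Bambi and Msx1 were still called, at -2.48, -3.49, -3.01, -2.52 and -2.03. The largest limma adjusted p of these was 0.0456, for Msx1. Id1, Bmp7, Msx2 and Bmp4 were not called there. In cells with no source well the differences of Id2 and Id3 widened to -4.36 and -6.01 (limma adjusted p = 0.0126 and 0.0141). Those of Id4 (-3.45, adjusted p = 0.113), Bambi (-2.38, adjusted p = 0.111) and Msx1 (-2.16, adjusted p = 0.447) were no longer called, and Bmp7 was (-2.0, adjusted p = 0.0279). The setting with no source well keeps 13 early neuroblast-like cells, Pecam1 in 23.1% and Csf1r in 15.4% of them. It was not run without cells of other types, so their part in it was not tested.

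From early neuroblast-like to differentiating neuron-like cells, Id3 alone of the 9 genes fell, where 1.87% of all genes tested fell, and none rose. It averaged 3.57 and 4.34 in replicates 1 and 2 of differentiating neuron-like cells against 5.35 and 5.63 in early neuroblast-like cells (difference -1.53, SE 0.29, limma adjusted p = 0.00265). Without receiving wells this difference turned to 0.36 (limma adjusted p = 0.947), over 15 differentiating neuron-like and 13 early neuroblast-like cells, so its direction is not fixed. The 13 include cells with Pecam1 or Csf1r, and the part of such cells in this change was not tested. Id2 differed by -1.35 (limma adjusted p = 0.120) and Id1 by -0.91 (adjusted p = 0.569). Leaving out the 7 cells of other types brought Id2 past the threshold, at -1.67 (adjusted p = 0.0451).

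Neurons of the epibranchial ganglia arise from neighbouring placodes. Of the 9 genes, Id2 was higher in epibranchial neuron-like than in differentiating neuron-like cells, where 1.05% of all genes tested were higher. It averaged 5.52 and 7.59 in replicates 1 and 2 of epibranchial neuron-like cells, against 3.75 and 3.28 in differentiating neuron-like cells, a difference of 3.05 (SE 0.49, limma adjusted p = 0.00108) that differed in size between replicates, at 1.78 in replicate 1 and 4.31 in replicate 2. Among cells with no source well it was 2.4 (limma adjusted p = 0.193). The other 8 genes gave differences between -0.33 and 1.01, none called.

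The neural tube cells offered a comparison from another tissue. Cluster 5, which held neuronal markers beside neural tube markers, had lower Id2, Id3 and Id4 than neural tube progenitor-like cells, where 1.86% of all genes tested were lower. Id3 averaged 5.38 and 4.86 in replicates 1 and 2 of cluster 5, against 7.69 and 8.11 in neural tube progenitor-like cells (difference -2.78, SE 0.29, limma adjusted p = 3.92e-05). Id2 averaged 4.97 and 5.23 against 6.98 and 7.25 in neural tube progenitor-like cells (difference -2.01, SE 0.49, adjusted p = 0.0268), and Id4 averaged 1.74 and 2.91 against 3.68 and 4.64 (difference -1.83, SE 0.49, adjusted p = 0.0490). The Id4 call was lost in 8 of 15 other settings and that of Id2 in 5. Cluster 5 kept 6 cells with no source well, too few for a test, and none of the 6 held Id4 (95% exact binomial interval up to 45.9%).

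**Figure D4:**
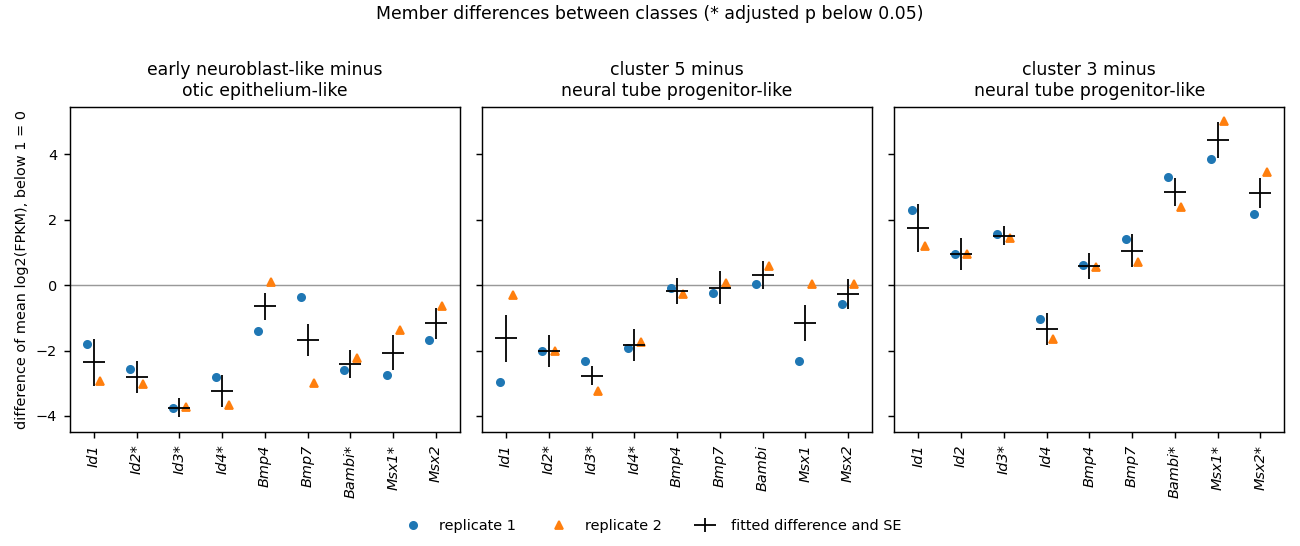
Difference in mean log2 FPKM (vertical axis, values below 1 set to 0) of each gene for early neuroblast-like minus otic epithelium-like cells, cluster 5 minus neural tube progenitor-like cells, and cluster 3 minus neural tube progenitor-like cells, with circles for replicate 1, triangles for replicate 2, dashes for the fitted difference with its SE, and an asterisk at a limma adjusted p below 0.05. Id2, Id3 and Id4 carry asterisks below 0 in both neuronal comparisons. Bambi does so in the otic comparison alone (-2.42 against 0.31 in the neural tube). It starts at 0.46 in neural tube progenitor-like cells and cannot fall below 0.

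Whether the otic and the neural tube step differ was tested as an interaction. Of the 9 genes only Bambi differed, with a step more negative in the otic cells, where 0.92% of all genes tested did so. The Bambi step was -2.42 from otic epithelium-like to early neuroblast-like cells and 0.31 from neural tube progenitor-like cells to cluster 5, a difference of -2.73 (SE 0.61, limma adjusted p = 0.0288), at -2.63 in replicate 1 and -2.83 in replicate 2. Neural tube progenitor-like cells themselves averaged 0.46 for Bambi, and listed values cannot lie below 0. A fall of the otic size could thus not show there, so the test cannot tell a different step from a low start. The call was lost in 5 of 15 other settings. For Id1, Id2, Id3 and Id4 the difference between the steps was -0.74, -0.79, -0.97 and -1.41, with limma adjusted p of 0.874, 0.741, 0.349 and 0.442 and standard errors of 1.02, 0.69, 0.41 and 0.69.

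Non-neuronal classes were then set against otic epithelium-like cells. In neural tube progenitor-like cells Id3, Bmp7 and Bambi were lower, where 4.65% of all genes tested were lower. Bambi differed by -2.98 (SE 0.43, limma adjusted p = 0.000135) and Bmp7, at 0.24 and 0.31 in replicates 1 and 2 against 2.11 and 3.18 in otic epithelium-like cells, by -2.37 (SE 0.50, adjusted p = 0.00565). Id3 differed by -1.33 (SE 0.29, adjusted p = 0.00712), and that call was lost in 6 of 17 other settings. Without receiving wells Bmp7 alone was still called (-2.31, limma adjusted p = 0.00872).

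In mesenchyme-like cells Id4, Bmp7 and Bambi were lower, where 3.48% of all genes tested were lower. Id4 averaged 1.11 and 0.43 in replicates 1 and 2 of mesenchyme-like cells, against 3.78 and 4.68 in otic epithelium-like cells (difference -3.46, SE 0.49, limma adjusted p = 9.77e-05), and the call held in all 16 other settings tried. Bmp7 differed by -2.13 (adjusted p = 0.0133) and Bambi by -1.77 (adjusted p = 0.0168), a call lost in 4 of 16 other settings, means per plate among them (-1.57, adjusted p = 0.0743). In surface ectoderm-like cells Msx2 was higher, where 1.85% of all genes tested were higher: it averaged 4.27 and 3.57 in replicates 1 and 2, against 2.31 and 1.68 in otic epithelium-like cells (difference 1.92, SE 0.47, limma adjusted p = 0.0231), on 6 of 6 plates. The other 8 genes did not pass the test between these classes, with Id3 nearest (difference -0.92, limma adjusted p = 0.0999).

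Cluster 3 was compared with neural tube progenitor-like cells after the data had been seen. Msx1, which the clustering did not use, stands first among the genes that set this cluster apart from other cells, so its values there are a description. Beside Msx1, the genes Id3, Bambi and Msx2 were higher in cluster 3, where 0.521% of all genes tested were higher. Bambi averaged 3.68 and 2.95 in replicates 1 and 2 of cluster 3 against 0.36 and 0.56 in neural tube progenitor-like cells (difference 2.86, SE 0.43, limma adjusted p = 0.00134), and Msx2 averaged 3.1 and 4.5 against 0.93 and 1.04 (difference 2.82, SE 0.47, adjusted p = 0.00312). Msx1 differed by 4.43 and Id3, at 9.24 and 9.56 in cluster 3 against 7.69 and 8.11 in neural tube progenitor-like cells, by 1.5 (SE 0.29, adjusted p = 0.0109). Without receiving wells Bambi and Msx2 differed by 3.94 and 4.68 (limma adjusted p = 0.0247 and 0.0204), and Id3 was no longer called (2.32, adjusted p = 0.473). The Msx1 difference there was 6.55. Id4 ran the other way, at -1.35, without passing the test (adjusted p = 0.253).

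The otic epithelium-like cells themselves fell into clusters 0, 2 and 11, of 50, 62 and 24 cells, and the comparisons between them were also added after the data had been seen. Of the 9 genes Id3 was higher in cluster 11 than in clusters 0 and 2, where 0.303% of all genes tested were higher. It averaged 10.02 and 10.69 in replicates 1 and 2 of cluster 11 against 8.96 and 9.01 in the cells of clusters 0 and 2 (difference 1.38, SE 0.31, limma adjusted p = 0.0375), a call lost in 6 of 13 other settings. Id1 and Id2 were each found in 24 of 24 cells of cluster 11, with differences of 1.77 and 1.62 that were not called (adjusted p = 0.225 and 0.0732). Between clusters 0 and 2 none of the 9 genes was called by limma, where 0.806% of all genes tested were called in either direction. The largest differences were those of Id2 (-1.75, limma adjusted p = 0.0972), Msx1 (1.78, adjusted p = 0.417) and Msx2 (1.88, adjusted p = 0.277). Msx1 averaged 4.18 and 4.72 in replicates 1 and 2 of cluster 0 against 3.09 and 2.25 in cluster 2, and Id2 averaged 6.53 and 6.35 against 8.28 and 8.09. Without receiving wells none of the 9 was called either (Id2 -3.47, limma adjusted p = 0.227).

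Neurod1 encodes the bHLH factor that marks committed neuroblasts. Over all cells, 198 held Neurod1 at an FPKM of at least 1 and 293 did not, and all 9 genes were lower in the Neurod1-positive cells, where 9.95% of all 10599 genes tested were lower. Positive and negative cells belong largely to different classes, so this comparison restates the class differences in part. Id3 averaged 5.48 and 5.85 in replicates 1 and 2 of Neurod1-positive cells, against 8.3 and 8.55 in Neurod1-negative cells (difference -2.77, SE 0.12). Without receiving wells Id1, Id2, Id3, Msx1 and Msx2 were still called, at -2.56, -3.41, -4.87, -2.30 and -1.67.

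Within the otic lineage (otic epithelium-like, early neuroblast-like and differentiating neuron-like cells) 101 cells were Neurod1-positive, 19, 31 and 51 of these classes in that order, and 125 were negative. All 9 genes were lower in the positive cells, where 10.8% of all genes tested were lower. Id3 averaged 4.96 and 5.56 in replicates 1 and 2 of Neurod1-positive cells, against 8.79 and 9.44 in Neurod1-negative cells (difference -3.86, SE 0.17), and Id2 averaged 4.76 and 4.61 against 7.42 and 7.59 (difference -2.81, SE 0.22). Id4, Bmp7, Msx1, Id1 and Bambi followed with differences of -2.26, -1.94, -1.89, -1.84 and -1.84, then Msx2 with -1.34 and Bmp4 with -0.71, whose limma adjusted p of 0.0114 was the largest of the 9. This fit has 4 means and 1 residual degree of freedom, so its error comes from the trend across genes. With means per plate, which leave 5 residual degrees of freedom, all 9 genes were called (largest limma adjusted p 0.0188). Plates are parts of the same replicates, so that setting adds no replicates. With no filter on low values limma called none of the genes (2453 at an unadjusted p below 0.05). Among cells with no source well the fit called none of the 10599 genes, of which 1727 had an unadjusted p below 0.05. The differences there were -5.29 for Id3, -3.83 for Id2 and -3.76 for Id1 (limma adjusted p = 0.0593, 0.0914 and 0.111).

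The lower shares of cells with an Id gene lay at Neurod1 FPKM of 100 to below 1000. In the otic lineage Id3 was found in 96.8% of 125 cells with Neurod1 below an FPKM of 1 (95% exact binomial interval 92.0% to 99.1%), in 94.7% of 19 cells with Neurod1 from 10 to below 100 (74.0% to 99.9%) and in 70.7% of 75 cells with Neurod1 from 100 to below 1000 (59.0% to 80.6%). Its median FPKM in these bins was 881, 334 and 35.4. Id1 gave 84.8%, 94.7% and 61.3%, Id2 gave 93.6%, 100% and 66.7%, and Id4 gave 73.6%, 68.4% and 36.0%. The mean number of Id genes per cell was 3.49, 3.58 and 2.35. The 4 cells with Neurod1 at 1000 or more did not continue this order, since each of them held Id1, Id2 and Id3. The lowest 2 of these Neurod1 bins have overlapping intervals for each of the 9 genes. The bin from 100 to below 1000 lies apart from that below 1 for each of these genes, for Bmp4 narrowly (8% against 24%). These intervals cover counting error over cells only, and the share of all genes that separate in this way was not computed. The separation is thus not a result particular to the 9 genes. The bins also belong largely to different classes, so they restate the class differences in part. With no source well the intervals overlap for Id2, Id4, Bmp4 and Msx2.

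**Figure D5:**
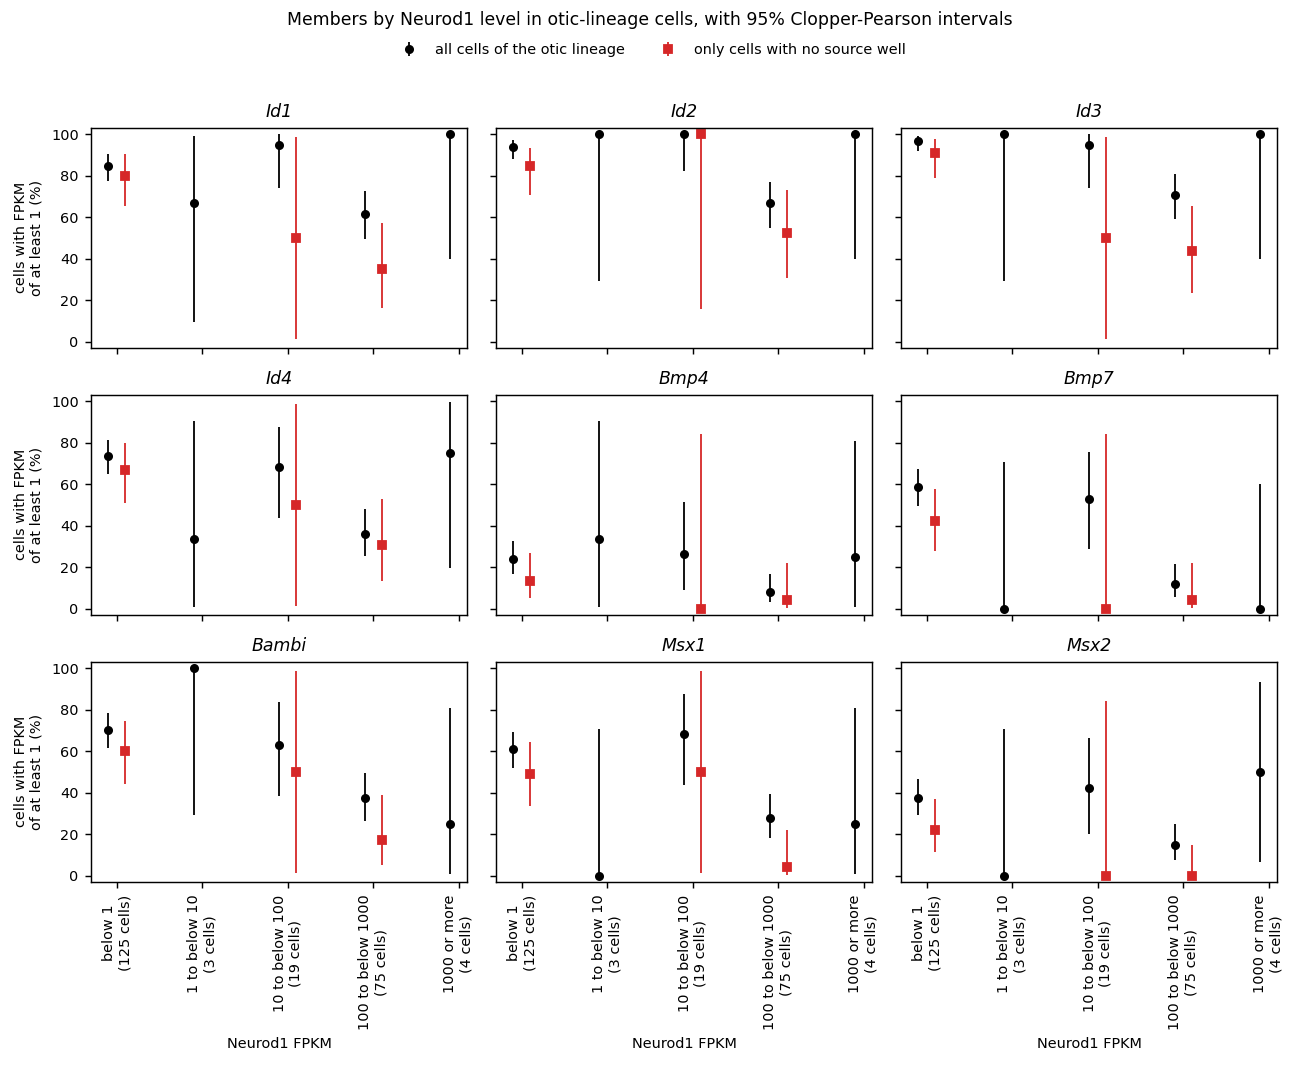
Share of otic-lineage cells (vertical axis, percent, with 95% Clopper-Pearson intervals) with each gene at an FPKM of at least 1, by the cell's Neurod1 FPKM (horizontal axis, bins on a log scale), for all cells (circles) and cells with no source well (squares). Shares at 10 to below 100 are close to those below 1 and are lower at 100 to below 1000, as for Bmp7 at 58.4%, 52.6% and 12%. The bins of 3 and 4 cells have intervals too wide to read.

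The middle bin rests on wells that receive from a neighbour. Only 2 of its 19 cells had no source well, and of the 19 Neurod1-positive otic epithelium-like cells 1 had none, so how far transfer of Neurod1 into Id-rich cells fills this bin was not tested. With no source well, the mean number of Id genes was 1.61 in 23 cells with Neurod1 from 100 to below 1000 and 3.22 in 45 cells with Neurod1 below 1. Id3 was found in 43.5% of these 23 cells (95% exact binomial interval 23.2% to 65.5%) and in 91.1% of these 45 (78.8% to 97.5%).

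Within the otic epithelium-like class a relation of Neurod1 to the Id genes could hardly be read. The clustering used Neurod1 as a marker, and 1 of the 42 cells with no source well held it. The values that follow are thus descriptions and do not show that a relation is absent. Among otic epithelium-like cells Id3 averaged 8.83 in 19 Neurod1-positive and 9.3 in 117 Neurod1-negative cells on the log2 scale, and Id1 averaged 7.03 and 6.62. Across these 136 cells Pearson's r with Neurod1 lay between -0.08 and 0.10 for the 9 genes, against -0.22 (Bmp4) to -0.60 (Id3) across the 226 cells of the otic lineage, which span classes. Cells share plates and replicates, and found genes per cell correlated with Id1, Id2 and Id3 in the otic lineage at 0.32, 0.31 and 0.29. These coefficients are thus descriptions. In cluster 3, outside the otic lineage, r with Neurod1 was -0.36 for Id1, -0.58 for Id2, -0.52 for Id3 and -0.43 for Msx1 over 31 cells, of which 7 held Neurod1 and none of the 12 with no source well did. Among 39 early neuroblast-like cells Id3 was found in 24 of 31 Neurod1-positive (77.4%) and 6 of 8 Neurod1-negative cells (75.0%). The class includes 7 cells with macrophage or endothelial markers, whose Neurod1 state is not given, so these shares do not compare neuroblasts alone.

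Co-expression within otic epithelium-like cells was read by pairs of genes. Log2 levels correlated at 0.68 for Id1 with Id2, 0.62 for Id1 with Id3 and 0.59 for Id2 with Id3 over 136 cells, and at 0.74, 0.47 and 0.50 over the 42 with no source well. Id4 correlated less with them, at 0.34 with Id1, 0.25 with Id2 and 0.16 with Id3. Msx1, Msx2 and Bambi also correlated, at 0.57 for Msx1 with Msx2, 0.52 for Bambi with Msx1 and 0.49 for Bambi with Msx2. With no source well these were 0.48, 0.58 and 0.58. Pairs of an Id gene with Msx1, Msx2 or Bambi are not given here, so a split into sets is not shown. Of the 52 otic epithelium-like cells with Msx2, 46 (88.5%) held Msx1 and 48 (92.3%) held Bambi, while 52.9% of the 87 cells with Msx1 held Msx2. Bmp4 and Bmp7 were found together in 20 of 136 cells (14.7%), with a correlation of -0.05. The points share plates and depth, and no difference between these coefficients was tested.

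Genes with the pattern most like each Id gene were taken from 10599 genes by Pearson's r over 18 class and replicate means, which share replicates and depth. For Id3 they were Mest (0.94), Isyna1 (0.93), Adk (0.90), Ccnd3 (0.89) and Trip6 (0.87), and the most opposed were Btbd17, Neurod1, Ppp1r14a, Gadd45g and Spsb4, all at -0.90. For Id1 they were Fos and Zdhhc20 (both 0.85), Gm5069 and Sorbs3 (both 0.84) and Id3 (0.83), with Meis3, Myef2, Dpysl2, Svop and Clgn most opposed, from -0.85 to -0.79. For Id2 they were Id3 (0.86), Fam3a and Isyna1 (both 0.83), and Ralgps2 and Cacnb2 (both 0.80), with Lifr, Cplx2, Actn3, Frat1 and Reep6 most opposed, from -0.89 to -0.84. For Id4 they were Moxd1 (0.83), Irx3 (0.82), Lhfp and Tspan33 (both 0.81) and Wnt7b (0.78), with Sulf2, Dlc1, Fgd1, Creb3 and Carhsp1 most opposed, from -0.78 to -0.72. Id4 correlated with Id1, Id2 and Id3 at 0.43, 0.47 and 0.49 on these means.

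The rest of the pathway was read from 6 lists of 63 genes: BMP ligands, receptors and co-receptors, extracellular antagonists, SMADs and their regulators, other BMP-responsive genes, and bHLH partners or targets of Id proteins. In early neuroblast-like against otic epithelium-like cells 41 listed genes could be tested. Nhlh2, a neuronal bHLH gene, was higher, by 3.56 (SE 0.51, limma adjusted p = 0.000256). Tbx2 and Gata2, transcription factor genes that respond to BMP in several tissues, were lower, by -2.92 (SE 0.48, adjusted p = 0.000933) and -1.13 (SE 0.21, adjusted p = 0.00261). No listed ligand, receptor, antagonist or SMAD gene passed the test by limma in this comparison, of 1, 8, 9 and 10 that could be tested. Over the lists the median difference was -0.62 for receptors, -0.56 for extracellular antagonists, -0.45 for SMADs and their regulators, -0.58 for other BMP-responsive genes and 0.05 for the bHLH list, against -0.07 over all genes tested. Those with the largest differences were the ligand Bmp6 (0.13, adjusted p = 0.89), the receptor Bmpr1a (-1.40, adjusted p = 0.0993), the extracellular modulator Twsg1 (-0.80, adjusted p = 0.752) and Tob1 (-1.45, adjusted p = 0.085), which restrains SMAD signalling. Without receiving wells Tbx2 was still called (-3.73, adjusted p = 0.0312), while Gata2 (-0.95, adjusted p = 0.0527) and Nhlh2 (3.14, adjusted p = 0.156) were not. Tbx2 is among the genes that lead otic cluster 2, so its values against otic epithelium-like cells are a description.

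Tbx2 and Gata2 also differed between the otic and the neural tube step, by -2.89 and -1.35 (limma adjusted p = 0.0359 and 0.0261). Both were near 0 in neural tube progenitor-like cells (mean log2 FPKM 0.28 and 0.07). Listed values cannot lie below 0, so falls of the otic size could not show from that class. In that class Msx3, a dorsal neural tube relative of Msx1, was higher than in otic epithelium-like cells by 2.55 (adjusted p = 0.000623), as were the co-receptor Rgma, the E protein gene Tcf12 and the proneural gene Neurog2. Lower there were the modulator Bmper, Tbx2 (-4.74), Tbx3 and Gata2, and without receiving wells Tbx2 alone of the genes named here was called (-4.98, adjusted p = 0.00452). From early neuroblast-like to differentiating neuron-like cells Nhlh2 was higher by 1.92 (adjusted p = 0.0304), and in epibranchial neuron-like over differentiating neuron-like cells the E protein genes Tcf4 (2.36) and Tcf12 (2.36) and Neurog2 (2.7) were higher, of which Neurog2 was still called without receiving wells (2.57, adjusted p = 0.0235). In cluster 5 Nhlh2 was higher (3.1) and the activin and BMP antagonist Fst lower (-1.28) than in neural tube progenitor-like cells.

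In cluster 3 the ligand Bmp6 (1.16, limma adjusted p = 0.00114), the BMP antagonist Nog (1.63, adjusted p = 0.00179) and the proneural gene Atoh1 (2.72) were higher than in neural tube progenitor-like cells and Neurog2 was lower (-1.36), with Atoh1 among the genes that set the cluster apart. Bmp6 and Nog were still called without receiving wells (1.93 and 2.27, adjusted p = 0.0266 and 0.0285). In surface ectoderm-like cells the antagonists Sostdc1 (5.37), which is among the genes that set that class apart, and Nbl1 (0.92) were higher than in otic epithelium-like cells, while Tbx2, Tbx3 and Gata2 were lower. In mesenchyme-like cells Fstl1 and Tcf12 were higher and Bmper, Tbx2, Tbx3 and Gata2 lower. In otic cluster 11 Tbx3 (1.37) and Gata2 (1.34) were higher than in clusters 0 and 2 (both adjusted p = 0.00526).

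Against Neurod1 in the otic lineage, 44 listed genes could be tested. Higher in Neurod1-positive cells were 6, where 7.26% of all genes tested were higher: the bHLH genes Nhlh2 (4.85), Nhlh1 (1.87), Neurod4 (0.49) and Neurog1 (0.45), the co-receptor gene Rgmb (0.93) and Smad1 (0.96), a transducer of BMP signals. Lower were 8, where 10.8% of all genes tested were lower: Tbx2 (-2.20), Gata2 (-1.01), the receptor genes Bmpr1a (-1.29) and Bmpr1b (-0.88), the extracellular regulators Bmper (-1.02), Fstl1 (-1.11) and Twsg1 (-0.90), and Smad6 (-0.68), an inhibitory SMAD. Over all cells 8 were higher and 9 lower, where 9.83% of all genes tested were higher and 9.95% lower, with Bmp1 (0.75) and Neurog2 (0.52) among the higher and Fst (-0.34) and Sostdc1 (-0.67) among the lower. Without receiving wells the fit of the otic lineage called no gene, and that of all cells still called Bmpr1a, Fstl1, Sostdc1, Neurod4, Nhlh1 and Nhlh2 (limma adjusted p = 0.0477, 0.0366, 0.0251, 0.0125, 0.00914 and 1.31e-05).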

How the data were processed

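Single cells sorted for tdTomato were sequenced as 1 library each, with the SMARTer Ultra Low Input kit V3 and Nextera XT, per the labels' protocols. The submitters' processing notes name TopHat, Bowtie, Bowtie2, Cufflinks, SAMtools, cutadapt and FastQC, and mm10, with no role or order. The values in the table deposited by the authors behave as log2 of FPKM: 2 raised to the value has 6 significant digits for 99.8% of the 2401083 values above 0 (relative tolerance 1e-08), and no value above 0 lies below an FPKM of 1. The planned reading was log2(FPKM + 1), which was kept as an alternative, and rounding after an addition of 1 could not be told apart. Read counts are not given, so depth is unknown and no count model was used.

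Gene names come from GENCODE M21, in which 19630 of 19659 rows matched. Cells were clustered on 76 of 93 listed markers (15 principal components, 15 neighbours, Leiden resolution 1) with Scanpy 1.11.5. Means per class and replicate (18 means) were tested with limma 3.58.1 in R 4.3.3, with trend, with replicate as a block and Benjamini-Hochberg adjustment over the 10549 genes found in at least 5% of cells, markers left out; the Neurod1 fits left out Neurod1 alone (10599 genes). Cells of a class are not replicates, and tests ran over class means only. On simulated data with 200 changed genes of 10549, the otic neuroblast comparison recovered 100% of changes of size 4 and 72% of size 2, with 8 false calls. A well was linked to a source where rare transcripts were shared in the same column at least 10 times as often as in other columns. Links to wells outside the 491 cells were not counted as sources. The genes named are the 9 members, listed pathway genes called with the same sign in both replicates, for a list with no call its largest difference (given for the first comparison), and the 5 highest and 5 lowest correlations with each Id gene; some markers and listed genes that meet this rule are not reported here. The members and lists were chosen with earlier results of these data known. Alternatives covered pseudocounts, filters, clustering, transfer, weighting, plates and single replicates.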

Additional observations from a re-analysis of the deposited data

Results flagged for a closer look

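The test of the difference between the otic and the neural tube neuronal step picked out 3 of the genes described. For Bambi the otic step was more negative by -2.73 on the mean log2 scale (limma adjusted p = 0.0288), for Tbx2 by -2.89 (adjusted p = 0.0359) and for Gata2 by -1.35 (adjusted p = 0.0261), each with the same sign in both replicates. Otic epithelium-like cells, where the otic step starts, averaged 3.44 for Bambi, 5.02 for Tbx2 and 1.44 for Gata2, and neural tube progenitor-like cells averaged 0.46, 0.28 and 0.07. Listed values cannot lie below 0, so falls of the otic size could not show from those neural tube levels. The test thus cannot tell a different step from an unequal start.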

How the results depend on the processing

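Of 1787 tests of single members under other settings, 1610 kept direction and side of the threshold, 51 called in neither setting changed sign, 92 lost the call, 33 gained one and 1 reversed. The reversal was Id3 in differentiating neuron-like minus early neuroblast-like cells, at 0.36 with cells that have no source well alone. Comparisons below are named by their first group, the Neurod1 fits by their cells, and values are members called. With the log2 of mean FPKM, early neuroblast-like cells gave 1, differentiating neuron-like 3, surface ectoderm-like 0, mesenchyme-like 1, cluster 5 gave 0, epibranchial 2, the interaction 0, cluster 3 gave 1 and otic cluster 11 gave 0. With no-source cells they were 3 for early neuroblast-like, 0 for differentiating neuron-like, 1 for neural tube progenitor-like, 0 for epibranchial, 5 for Neurod1 in all cells and 0 in the otic lineage, where 1727 genes had an unadjusted p below 0.05. Weighting by cells gave 6 for neural tube progenitor-like, 3 for surface ectoderm-like, 2 for epibranchial, 0 for cluster 11 and 2 for clusters 0 and 2. A pseudocount of 10 gave 2 for surface ectoderm-like, epibranchial and cluster 11 and 0 for the interaction, and one of 0.1 gave 0 for the interaction and cluster 11. Classes by highest list score gave 0 for differentiating neuron-like, surface ectoderm-like and the interaction and 1 for cluster 5. With no filter on low values they were 0 for surface ectoderm-like, cluster 11 and the otic-lineage Neurod1 fit (2453 genes at an unadjusted p below 0.05) and 1 for cluster 5. Correction for transfer at 30% gave 0 for differentiating neuron-like and 2 for cluster 11, and at 10% gave 2 for epibranchial and 0 for cluster 11. Leaving out cells of other types gave 2 for differentiating neuron-like, Leiden resolution 0.5 gave 2 for surface ectoderm-like, resolution 1.5 gave 1 for cluster 5 and 0 for the interaction, and means per plate gave 0 for cluster 11. Means per plate also brought Bmp4 in neural tube progenitor-like minus otic epithelium-like cells past the threshold (-1.02, adjusted p = 0.0419). The cause of these changes was not tested.

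Without the replicate block, 4 members were called in early neuroblast-like cells (Msx1 lost), 2 in cluster 5 (Id4 lost) and 8 in the otic-lineage Neurod1 fit (Bmp4 lost), and the other comparisons gave 1, 3, 1, 3, 1, 1, 4, 1, 0 and 9, as many as with it. With 1 replicate alone no residual degrees of freedom remain, so those values have no test. Id3 in early neuroblast-like minus otic epithelium-like cells then ranged from -3.77 to -3.72 and Id2 from -3.03 to -2.57. At resolution 0.5 early neuroblast-like and differentiating neuron-like cells merged, and the surface ectoderm-like, mesenchyme-like, cluster 5 and cluster 11 comparisons had too few no-source cells for a fit. Weighting was not run for the Neurod1 fits. With read depth unknown, a listed 0 cannot be read as absence.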
